A study of Mus musculus with 14 samples.

Results

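Osgin1 and 8 genes of the oxidant-sensing NRF2 pathway were followed through RNA of the mouse left ventricle. The 9 genes are Osgin1, Nfe2l2, Keap1, Nqo1, Hmox1, Gclc, Gclm, Txnrd1 and Srxn1, out of 24054 genes in the count table, and each was found there under its symbol. Osgin1 was chosen by its measured levels, as one of the largest rises with a hairpin against Foxo1 over a scrambled hairpin, so that difference is a description and not a test result. The other 8 were taken for their place in the pathway. Each of the 9 passed the filter on low counts, which kept 13588 genes.

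The libraries fall into 3 groups of C56Bl6 mice. Mice of HFpEF-FoxO1-sh (5 libraries) were fed a High-Fat + L-NAME diet over 6 weeks and carried an adeno-associated virus (AAV) with a hairpin RNA against FoxO1 for 4 weeks. Mice of HFpEF-scr (4 libraries) had the same diet over 6 weeks and an AAV with a scrambled hairpin for 4 weeks. The control group, 5 libraries, had a standard diet and is labelled 10 weeks, with no AAV named. L-NAME blocks nitric oxide synthases, and the diet is used to model heart failure with preserved ejection fraction (HFpEF). HFpEF-scr against control therefore differs in diet, in L-NAME, in the AAV and in the labelled weeks at the same time, and these cannot be told apart. HFpEF-FoxO1-sh against control differs in all of these and in the hairpin against FoxO1 as well, and they cannot be told apart there either. The labels give no age, no sex, no promoter for the hairpin and no statement that replicates are separate animals, so each p reflects the spread between these libraries only.

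NRF2, the protein of Nfe2l2, is a transcription factor that KEAP1 holds in the cytoplasm and hands to a ubiquitin ligase for breakdown. Oxidants and reactive chemicals modify cysteines of KEAP1, NRF2 then escapes, pairs with small MAF proteins and binds antioxidant response elements. Its textbook targets make and use glutathione, reduce thioredoxin and quinones, and break down haem. OSGIN1 is named for the arrest of growth under oxidative stress, and it is known from cultured human cells as a gene induced through NRF2. In heart muscle the pathway is known for protection against oxidants from mitochondria and oxidases.

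Promoters were read for the letters of 3 motifs, each on both strands. The core of the antioxidant response element was TGACNNNGC, the AP-1 site was TGANTCA and the FoxO site was GTAAACA. The first 2 can share letters. RefSeq (GRCm38.p6) gave 9 windows for 7 of the 9 genes, all but Hmox1 and Gclc, each window with 250 bases before the start site and 50 from it on. The core was in 4 of these 9 windows, the AP-1 letters in 2 and the FoxO letters in 0. Of all 32851 promoter windows of the same length, 12.4% held the core, 7.81% the AP-1 letters and 3.65% the FoxO letters. In 107 windows of the wider pathway the shares were 17.8%, 11.2% and 3.74%.

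4 windows are shown, for Osgin1 as the gene that differed, Srxn1 as the gene that ran against it within groups, Gclm as the target that was higher without overlap between hairpins, and Nfe2l2 as the source of NRF2. They are written 5′ to 3′ on the strand of the gene, with motif letters in capitals. The Osgin1 window is chr8:119436897-119437196 (+), where the capitals are an AP-1 match at -97 from the start site. This window lies inside the annotated gene, which begins at 119434124, so it surrounds a start site downstream of the gene's 5′ end. The stretch before that 5′ end was not read. The Srxn1 window is chr2:152105274-152105573 (+), with AP-1 matches at -102 and -45 and a core on the opposite strand at 29, counting the start site as 1. The Gclm window is chr3:122245307-122245606 (+), with a core on the opposite strand at -134. The Nfe2l2 window is chr2:75704614-75704913 (-), with a core at -240.
Osgin1: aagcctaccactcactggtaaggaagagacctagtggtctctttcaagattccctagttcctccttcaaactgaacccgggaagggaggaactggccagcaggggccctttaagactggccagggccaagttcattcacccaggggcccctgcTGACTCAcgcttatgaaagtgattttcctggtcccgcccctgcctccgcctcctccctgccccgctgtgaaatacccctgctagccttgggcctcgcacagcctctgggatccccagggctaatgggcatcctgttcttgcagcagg
Srxn1: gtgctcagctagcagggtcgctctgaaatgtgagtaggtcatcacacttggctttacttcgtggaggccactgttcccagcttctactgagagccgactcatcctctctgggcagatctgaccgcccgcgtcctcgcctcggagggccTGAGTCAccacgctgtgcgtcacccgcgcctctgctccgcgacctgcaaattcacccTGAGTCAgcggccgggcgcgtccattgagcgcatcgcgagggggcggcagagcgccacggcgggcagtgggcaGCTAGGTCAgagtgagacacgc
Gclm: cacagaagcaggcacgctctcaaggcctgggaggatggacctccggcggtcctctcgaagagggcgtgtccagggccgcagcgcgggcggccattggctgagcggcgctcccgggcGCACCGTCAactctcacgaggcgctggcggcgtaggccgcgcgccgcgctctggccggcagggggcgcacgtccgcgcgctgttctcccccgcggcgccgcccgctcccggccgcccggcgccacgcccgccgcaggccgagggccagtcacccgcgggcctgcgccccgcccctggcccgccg
Nfe2l2: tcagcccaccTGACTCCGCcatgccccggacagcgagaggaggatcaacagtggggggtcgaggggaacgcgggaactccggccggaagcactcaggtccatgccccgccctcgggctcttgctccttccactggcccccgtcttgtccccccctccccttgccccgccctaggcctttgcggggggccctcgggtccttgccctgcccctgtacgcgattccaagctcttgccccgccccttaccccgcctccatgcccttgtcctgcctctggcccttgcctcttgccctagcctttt

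A match marks letters only and not a bound site. The other window with a core was the second of 3 for Txnrd1, chr10:82858956-82859255 (+), on the opposite strand at -92. No match was found in the windows of Keap1 and Nqo1, which says only that these letters are not in those windows.

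Library totals ran from 13.17 to 21.25, in units of 1000000 expected counts. Levels are counts per 1000000 (CPM) after TMM scaling, and differences are log2 fold changes ± SE, positive where the group named first is higher. Foxo1 itself, the gene aimed at by the hairpin, averaged 42.4 ± 2.56 CPM in HFpEF-FoxO1-sh, 43.5 ± 3.74 in HFpEF-scr and 44.0 ± 1.93 in control (SD). Its log2 fold change in HFpEF-FoxO1-sh against HFpEF-scr was -0.04 ± 0.06 (edgeR adjusted p = 0.78, 95% interval from -10.9% to 6.42%), so this transcript was not detectably lower in libraries labelled HFpEF-FoxO1-sh, and groups are named here as labelled. In HFpEF-FoxO1-sh, HFpEF-scr and control, the summed level of 10 cardiomyocyte markers ran from 106862 to 118918 CPM, from 103292 to 112448 and from 113925 to 121123, and none of the 10 was at 0. Each HFpEF-scr sum was below each control sum. In edgeR 3 of the 10 fell and 0 rose in HFpEF-scr against control, with a median of -0.12, where 3.70% of all genes fell. In HFpEF-FoxO1-sh against control 1 fell, where 6.28% of all genes did. Between hairpins 0 were called, where 3.58% of all genes were. The part of muscle cells in differences against control was not tested. In bulk tissue, fewer cells of a type and less RNA per cell cannot be told apart.

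Osgin1 (chromosome 8, 119434124 to 119446256 of GRCm38, plus strand) is the gene the hairpin groups differ in most among the 9, and its exons are shared with no other annotated gene. In HFpEF-FoxO1-sh 1 to 5 it had 3.85, 5.83, 5.24, 5.00 and 5.20 CPM. In HFpEF-scr, replicates 1 to 4 had 2.74, 2.63, 2.18 and 3.12 CPM, and control 1 to 5 had 2.48, 2.89, 3.39, 2.63 and 3.54 CPM. Every HFpEF-FoxO1-sh library was above every library of the other 2 groups, with replicate 1 the lowest of its group, while HFpEF-scr and control overlapped. The means were 5.02 ± 0.724 in HFpEF-FoxO1-sh (SD, n = 5), 2.67 ± 0.388 in HFpEF-scr (SD, n = 4) and 2.99 ± 0.466 in control (SD, n = 5).

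As a description of the choice, Osgin1 was 0.91 ± 0.16 higher on the log2 scale in HFpEF-FoxO1-sh than in HFpEF-scr, a 1.88-fold difference. Against control the log2 difference of HFpEF-FoxO1-sh was 0.75 ± 0.14, or 1.69-fold, and that of HFpEF-scr was -0.16 ± 0.16. By fold it stood at place 39 of 13588 genes for the hairpins, and at place 14 of 11930 genes that averaged 2 CPM or more. Gsta1, a glutathione transferase of the wider pathway, stood at place 3 of those 11930. Its difference of 1.55 ± 0.51 did not pass (edgeR adjusted p = 0.0927). Gsta1 had 39 to 91 counts a library in HFpEF-FoxO1-sh and 0 to 43 in HFpEF-scr. Osgin1 is scarce: its libraries held 58 to 78 counts in HFpEF-FoxO1-sh, 34 to 44 in HFpEF-scr and 39 to 53 in control. Osgin2, the other gene of its family, gave no such difference. Its level was 8.07 ± 1.10 CPM in HFpEF-FoxO1-sh, 8.08 ± 0.268 in HFpEF-scr and 8.95 ± 1.03 in control, with a hairpin difference of -0.00 ± 0.11 (edgeR adjusted p = 0.987, 95% interval from -15.0% to 17.0%).

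**Figure D1:**
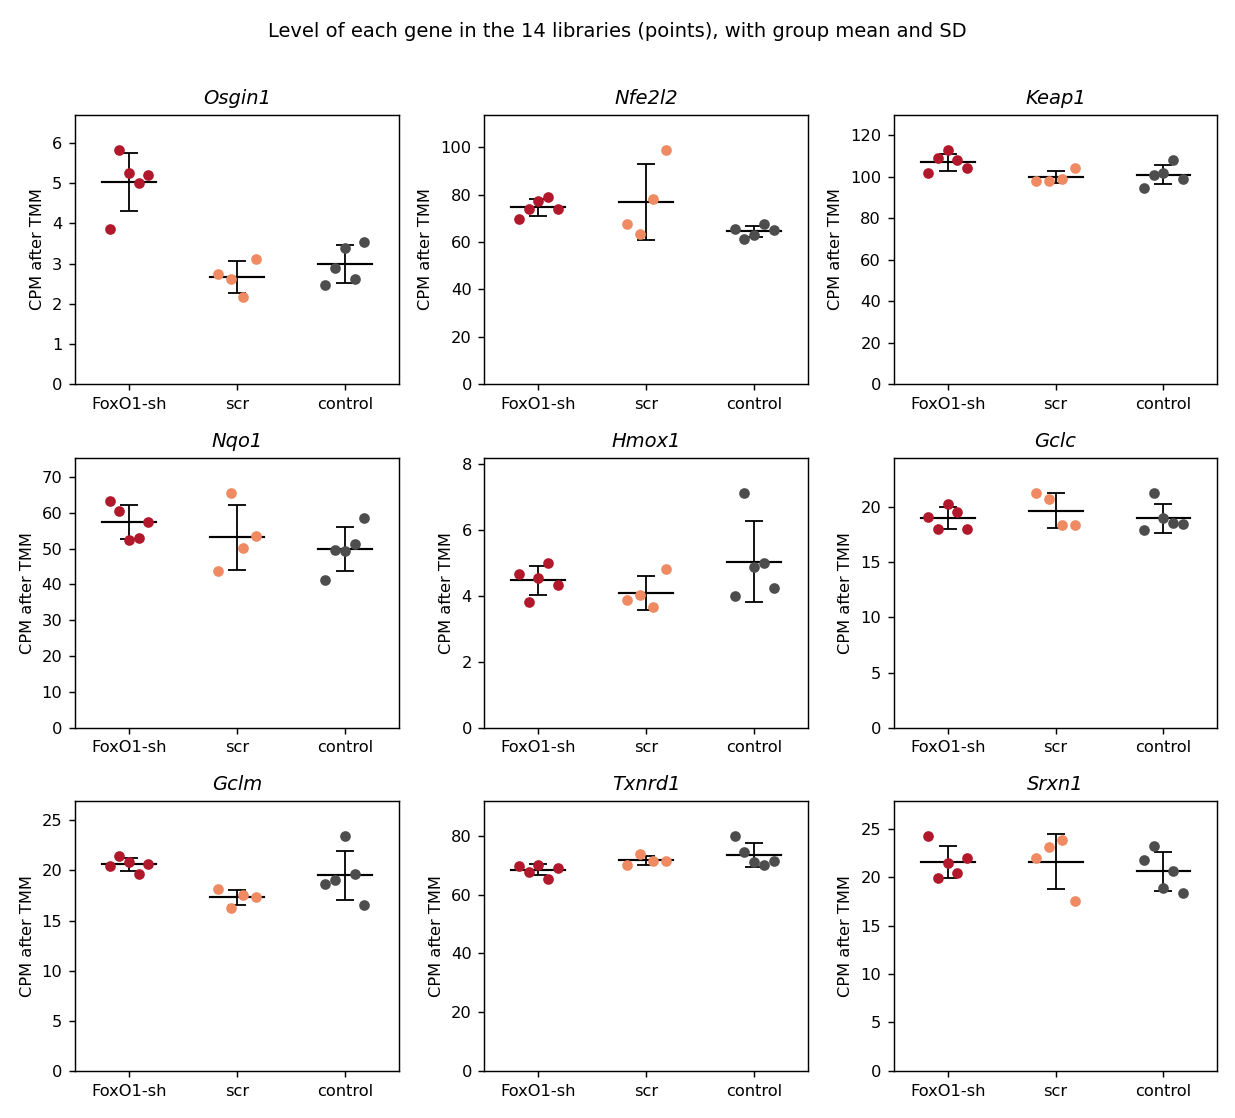
CPM after TMM (vertical axis, from 0) of each of the 9 genes in HFpEF-FoxO1-sh, HFpEF-scr and control, with 1 point per library and bars for the group mean and SD. Osgin1 sits between 3.85 and 5.83 CPM in HFpEF-FoxO1-sh and at or below 3.54 CPM elsewhere, whereas the other 8 genes stay close between groups.

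Per length of exon, Osgin1 was the scarcest of the 9 genes. Length here is all exon bases of a gene in GENCODE vM21, merged over its transcripts, and the order depends partly on that choice. In plain CPM Osgin1 was lowest too, at 3.62 on average, with Hmox1 next at 4.56. Nqo1 averaged 34.5 ± 4.47 CPM per kb over the 14 libraries (SD), Keap1 21.9 ± 1.08 and Nfe2l2 18.9 ± 2.58. Txnrd1 followed with 10.0 ± 0.475, Srxn1 with 7.53 ± 0.724 and Gclc with 5.10 ± 0.326. The lowest levels were those of Gclm at 3.06 ± 0.317, Hmox1 at 2.61 ± 0.495 and Osgin1 at 1.36 ± 0.451 CPM per kb. In this order the ranges of mean ± SD overlap for Keap1 and Nfe2l2 and for Gclm and Hmox1. The spread over all 14 libraries was also unequal: the highest library was 2.68 times the lowest for Osgin1 and 1.95 times for Hmox1, but 1.19 times for Keap1 and for Gclc. For Osgin1 that ratio holds the group difference it was chosen by. Within groups Osgin1 ran from 3.85 to 5.83 CPM in HFpEF-FoxO1-sh, 2.18 to 3.12 in HFpEF-scr and 2.48 to 3.54 in control. Hmox1 ran from 3.98 to 7.12 CPM in control.

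Neither the sensor nor its factor was called, and neither came near the fold of Osgin1. Nfe2l2 (chromosome 2, 75675513 to 75704641, minus strand) had 69.6, 74.0, 77.1, 78.9 and 74.1 CPM in HFpEF-FoxO1-sh 1 to 5. HFpEF-scr 1 to 4 had 67.4, 63.2, 78.0 and 98.9 CPM, and control 1 to 5 had 65.7, 61.4, 63.0, 67.4 and 65.0 CPM. HFpEF-FoxO1-sh lay wholly above control, and HFpEF-scr was spread wide, with replicate 4 far above the other 13 libraries and replicate 2 among the controls. Between hairpins the log2 difference was -0.04 ± 0.09. HFpEF-scr against control gave 0.25 ± 0.09 (edgeR adjusted p = 0.115), and HFpEF-FoxO1-sh against control 0.21 ± 0.09 (edgeR adjusted p = 0.134, 95% interval from 1.60% to 32.1%), so neither passed.

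These Nfe2l2 results changed with the libraries and groups in the fit. HFpEF-scr against control passed without HFpEF-scr 2 (edgeR adjusted p = 0.0429) and fell to 0.11 without HFpEF-scr 4 (adjusted p = 0.37). HFpEF-FoxO1-sh against control passed in a fit of those 2 groups alone (edgeR adjusted p = 0.00597), and why it passed there was not tested.

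Keap1 (chromosome 9, 21229730 to 21239361, minus strand), the sensor, had 102, 109, 113, 108 and 104 CPM in HFpEF-FoxO1-sh 1 to 5. In HFpEF-scr, replicates 1 to 4 had 97.9, 98.1, 98.8 and 104 CPM, and control 1 to 5 had 94.6, 101, 102, 108 and 98.8 CPM. The groups overlapped, and the log2 difference was 0.10 ± 0.04 between hairpins, -0.01 ± 0.04 in HFpEF-scr against control (edgeR adjusted p = 0.882) and 0.09 ± 0.04 in HFpEF-FoxO1-sh against control (edgeR adjusted p = 0.185). Of its exon bases 10.9% are shared with Gm16754 on the opposite strand, and whether counting used strand is not given in the sources used here.

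The rate-limiting enzyme of glutathione synthesis has a catalytic subunit from Gclc and a modifier subunit from Gclm. Gclm (chromosome 3, 122245557 to 122270732, plus strand) had 20.4, 21.4, 20.8, 19.6 and 20.6 CPM in HFpEF-FoxO1-sh 1 to 5. HFpEF-scr 1 to 4 had 18.1, 16.3, 17.5 and 17.3 CPM, and control 1 to 5 had 18.6, 19.0, 23.4, 19.6 and 16.6 CPM. All HFpEF-FoxO1-sh libraries were above all HFpEF-scr libraries, while the controls overlapped both, with control 3 the highest library of all. Of its exon bases 4.71% are shared with Gm17494 on the opposite strand and Gm6061 on the same strand. The hairpin difference of 0.25 ± 0.08 is given as a description. HFpEF-scr against control was -0.17 ± 0.08 (edgeR adjusted p = 0.212) and HFpEF-FoxO1-sh against control 0.08 ± 0.07 (adjusted p = 0.538).

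Gclc (chromosome 9, 77754535 to 77794485, plus strand) varied little. It averaged 19.0 ± 0.999 CPM in HFpEF-FoxO1-sh, 19.7 ± 1.57 in HFpEF-scr and 19.0 ± 1.31 in control (SD), with each library between 17.9 and 21.3 CPM. The log2 differences were -0.05 ± 0.07 between hairpins, 0.05 ± 0.07 in HFpEF-scr against control (edgeR adjusted p = 0.709) and -0.00 ± 0.07 in HFpEF-FoxO1-sh against control (adjusted p = 0.99, 95% interval from -9.32% to 10.0%). The subunits of this enzyme thus gave different values between the hairpins, and the difference between the 2 genes was not tested.

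Txnrd1 (chromosome 10, 82833951 to 82897712, plus strand) encodes the cytosolic reductase of thioredoxin, and was also without overlap between hairpins, but lower in HFpEF-FoxO1-sh. It had 69.8, 67.7, 70.0, 65.4 and 69.1 CPM in HFpEF-FoxO1-sh 1 to 5. In HFpEF-scr, replicates 1 to 4 had 70.2, 73.8, 71.3 and 71.4 CPM, and control 1 to 5 had 79.8, 74.6, 71.0, 70.1 and 71.3 CPM. The gap was narrow, from 70.0 CPM in HFpEF-FoxO1-sh 3 to 70.2 in HFpEF-scr 1 and 70.1 in control 4. The hairpin difference was -0.07 ± 0.04. HFpEF-FoxO1-sh against control gave -0.10 ± 0.04 (edgeR adjusted p = 0.126) and HFpEF-scr against control -0.03 ± 0.04 (adjusted p = 0.693).

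Srxn1 (chromosome 2, 152105516 to 152111376, plus strand), whose product sulfiredoxin repairs overoxidised peroxiredoxins, averaged the same with either hairpin. Its mean was 21.6 ± 1.65 CPM in HFpEF-FoxO1-sh, 21.6 ± 2.83 in HFpEF-scr and 20.6 ± 1.99 in control (SD), with HFpEF-scr 4 the lowest library at 17.5 CPM and HFpEF-FoxO1-sh 1 the highest at 24.2 CPM. HFpEF-scr against control was 0.07 ± 0.09 (edgeR adjusted p = 0.697) and HFpEF-FoxO1-sh against control 0.07 ± 0.09 (adjusted p = 0.663).

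Nqo1 (chromosome 8, 107388225 to 107403206, minus strand), a quinone reductase and the usual marker of NRF2 activity, had 63.3, 60.6, 52.4, 52.9 and 57.4 CPM in HFpEF-FoxO1-sh 1 to 5. HFpEF-scr 1 to 4 had 43.8, 65.5, 50.1 and 53.6 CPM, and control 1 to 5 had 41.1, 49.5, 49.3, 51.3 and 58.4 CPM. The 3 groups overlapped, and HFpEF-scr alone spanned nearly the whole range. The difference was 0.11 ± 0.11 between hairpins, 0.10 ± 0.11 in HFpEF-scr against control (edgeR adjusted p = 0.637) and 0.20 ± 0.10 in HFpEF-FoxO1-sh against control (adjusted p = 0.204, 95% interval from -0.605% to 33.1%).

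Hmox1 (chromosome 8, 75093621 to 75100589, plus strand) encodes the inducible haem oxygenase and, like Osgin1, is scarce here, at 51 to 96 counts a library. It had 4.65, 3.81, 4.55, 5.00 and 4.33 CPM in HFpEF-FoxO1-sh 1 to 5. In HFpEF-scr, replicates 1 to 4 had 3.87, 4.02, 3.65 and 4.82 CPM, and control 1 to 5 had 3.98, 7.12, 4.89, 4.99 and 4.23 CPM. The groups overlapped, and control 2 stood apart at the top. The difference was 0.13 ± 0.16 between hairpins, -0.29 ± 0.16 in HFpEF-scr against control (edgeR adjusted p = 0.287) and -0.16 ± 0.15 in HFpEF-FoxO1-sh against control (adjusted p = 0.535). Without control 2 these last differences were -0.14 and -0.01.

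Control 2 also had the highest sum of 12 macrophage markers, at 332 CPM. That sum was 174 to 221 CPM in HFpEF-FoxO1-sh, 234 to 295 in HFpEF-scr and 250 to 332 in control, with none of the 12 at 0. In edgeR 9 of the 12 markers fell in HFpEF-FoxO1-sh against control, and 3 fell against HFpEF-scr, where 6.28% and 2.26% of all genes fell. Macrophages are known for strong haem oxygenase expression, and the part of these cells in the Hmox1 values was not tested.

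Counted over the members, 2 of 9 genes (Osgin1 and Gclm) were higher without overlap in HFpEF-FoxO1-sh than in HFpEF-scr, where 4.11% of all genes tested were. Lower without overlap was 1 of 9 (Txnrd1), against 4.23% of all genes. The rule used this contrast, so nothing is read from these counts. Of the 8 members other than Osgin1, 0 were called in HFpEF-scr against control, where 7.37% of all genes were, with 1 (Nfe2l2) at an unadjusted p under 0.05. DESeq2 and limma voom also called 0. Without overlap, 0 were higher and 0 lower, where 4.29% and 4.64% of all genes were. In HFpEF-FoxO1-sh against control 0 of the 8 were called, where 13.0% of all genes were, with 3 (Nfe2l2, Keap1 and Txnrd1) at an unadjusted p under 0.05 in edgeR and 0 called by DESeq2 or limma voom. Without overlap, 1 of the 8 was higher there (Nfe2l2) and 1 lower (Txnrd1), where 6.62% and 5.53% of all genes were.

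**Figure D2:**
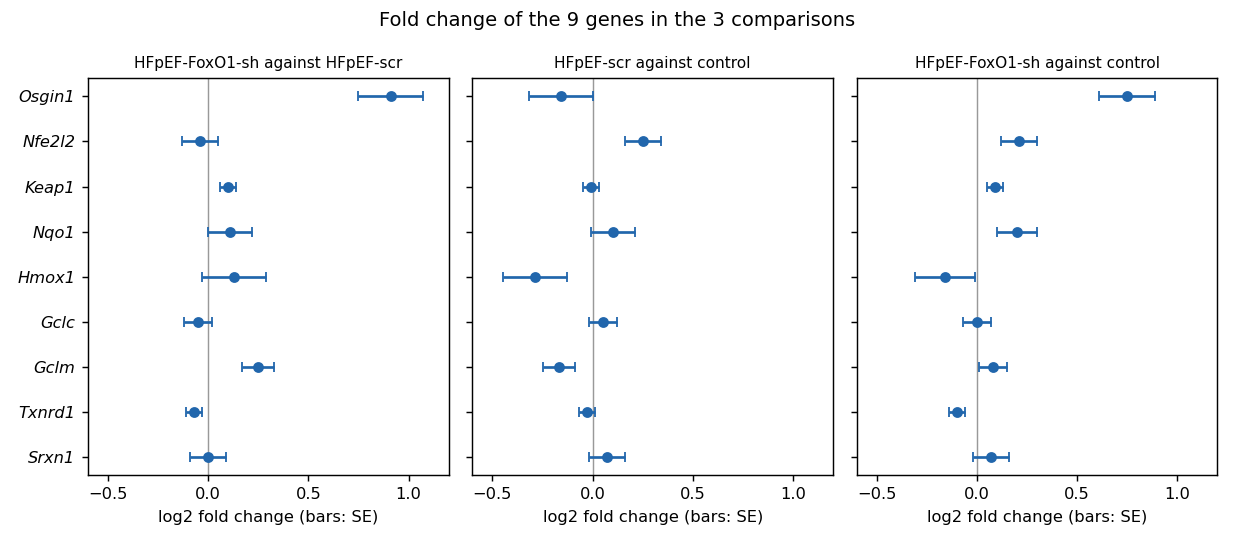
Log2 fold change (horizontal axis) with SE (bars) of the 9 genes in HFpEF-FoxO1-sh against HFpEF-scr, HFpEF-scr against control and HFpEF-FoxO1-sh against control, from left to right. Osgin1 stands at 0.91 and 0.75 in the comparisons of HFpEF-FoxO1-sh, and the other 8 genes lie between -0.29 and 0.25 in all 3.

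Within groups, Srxn1 ran against Osgin1. Over the 14 libraries, with each library's log2 CPM taken from its group mean, Pearson's r was -0.79 (permutation within groups, p = 0.00227, adjusted over 8 relations p = 0.0182) and Spearman's rho -0.86 (p = 0.00097, adjusted p = 0.00776). HFpEF-FoxO1-sh 1 had the lowest Osgin1 for its group and the highest Srxn1, and HFpEF-scr 4 the highest Osgin1 for its group and the lowest Srxn1. Without HFpEF-FoxO1-sh 1 and HFpEF-scr 3, the libraries farthest from the median on the Osgin1 axis, r was -0.73. Among 11384 genes at 2 CPM or more on average and with a regular symbol, Srxn1 had the ninth lowest r with Osgin1. The other 7 members showed no relation that passed, with r from -0.40 for Txnrd1 to 0.36 for Keap1 and adjusted p of at least 0.673. Groups hold 4 or 5 libraries, too few for r within each, and shared scaling and depth run through all genes of a library. Osgin1 had only 34 to 78 counts a library. How much of its spread within groups is counting error was not tested, so this r is no measure of a link between the genes.

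**Figure D3:**
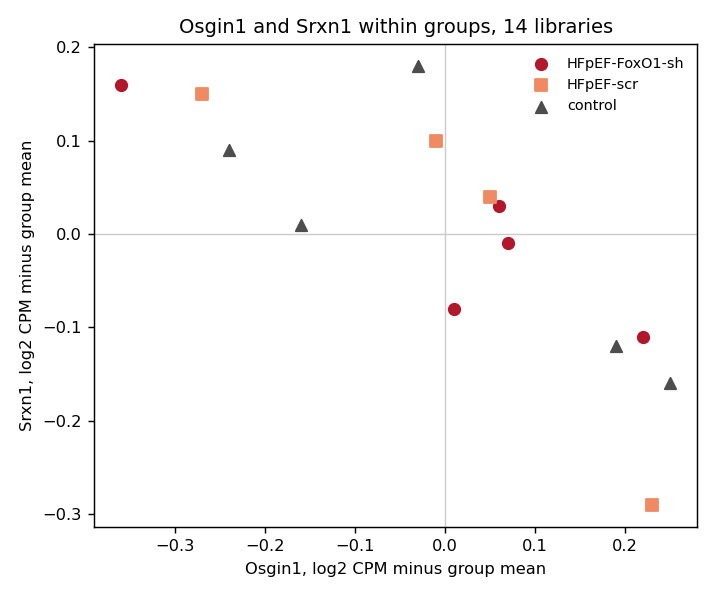
Log2 CPM less the group mean of Osgin1 (horizontal axis) and Srxn1 (vertical axis), 1 point for each of the 14 libraries, marked by group. Libraries above their group in Osgin1 are mostly below it in Srxn1, with r at -0.79.

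By r of log2 CPM over the 14 libraries, without removing groups, the first 6 of 11384 genes were Kxd1 (0.92), Psmb6 (0.90), Rufy1 (0.88), Bcap31 (0.87), Clk4 (0.87) and Xpo6 (0.87). Kxd1 belongs to a complex that positions lysosomes, and Psmb6 is a catalytic subunit of the proteasome. Kxd1 averaged 59.7 CPM in HFpEF-FoxO1-sh, 51.8 in HFpEF-scr and 53.1 in control, so it shares the order of the groups at a much smaller fold. Among members the highest were Keap1 with r of 0.72 at place 188 and Gclm with 0.57 at place 867, and the lowest was Txnrd1 with -0.66. These values follow the groups that chose Osgin1 and are descriptions. With group means removed, the first 6 were Arid3b (0.85), Lrrc10 (0.84), Cic (0.82), Prmt1 (0.81), Gpihbp1 (0.80) and Appl2 (0.80), none of which is among the first 6 by level.

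The wider pathway was looked at through 86 more genes in 9 lists, of which 77 passed the filter. These lists were chosen with earlier results of these data known, so their shares beside those of all genes are descriptions. In HFpEF-FoxO1-sh against control 14 of the 77 rose (18.2%) and 2 fell (2.60%), where 6.68% of all genes rose and 6.28% fell, and the median log2 difference was 0.07, beside -0.00 over all genes. In HFpEF-FoxO1-sh against HFpEF-scr, where 3.58% of all genes were called, 3 rose (3.90%) and 1 fell (1.30%), and 1.32% of all genes rose and 2.26% fell. In HFpEF-scr against control 6 rose (7.79%) and 4 fell (5.19%), where 3.66% and 3.70% of all genes did. The medians of the 77 genes in these last comparisons were 0.09 and 0.01. Fibroblast markers moved between hairpins as well: their sum over 10 genes was 1866 to 2351 CPM in HFpEF-FoxO1-sh, 2088 to 2656 in HFpEF-scr and 1949 to 2326 in control, with none of the 10 at 0. In edgeR 3 of the 10 fell and 0 rose in HFpEF-FoxO1-sh against HFpEF-scr, with a median of -0.30, where 2.26% of all genes fell. Against control 3 fell, with a median of -0.03, where 6.28% of all genes fell. In HFpEF-scr against control 2 rose, where 3.66% of all genes did. Between hairpins the median was -0.19 for 10 smooth muscle and pericyte markers, with 0 called. It was -0.14 for 10 endothelial markers, with 1 lower, where 2.26% of all genes were. In HFpEF-scr against control 3 smooth muscle and pericyte markers and 2 endothelial markers rose, where 3.66% of all genes did. In HFpEF-FoxO1-sh against control 0 of the former were called, and of the latter 1 rose and 1 fell. The part of these cell types in the pathway counts was not tested. The 9 genes that did not pass the filter, among them Slc7a11, Gpx2 and Aldh3a1, had at most 10 counts in any library.

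Glutathione transferases, which join glutathione to reactive compounds, held 5 of the 14 rises in HFpEF-FoxO1-sh against control, out of 17 tested, and 0 falls. In that comparison 6.68% of all genes rose and 6.28% fell, and the list was chosen with earlier results known. Gsta3 had 14.3, 6.87, 13.4, 9.79 and 9.13 CPM in HFpEF-FoxO1-sh 1 to 5, against 3.98, 6.45, 3.92, 5.79 and 5.32 CPM in control 1 to 5. The groups did not overlap, and it rose by 1.09 ± 0.24 (edgeR adjusted p = 0.00717). HFpEF-scr had 4.57, 4.85, 4.42 and 9.78 CPM, replicate 4 alone reaching the HFpEF-FoxO1-sh range, and the hairpin difference of 0.86 ± 0.25 did not pass (edgeR adjusted p = 0.066).

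Gstm1 rose by 0.20 ± 0.04 in HFpEF-FoxO1-sh against control (edgeR adjusted p = 0.00253), with 197 to 208 CPM in HFpEF-FoxO1-sh and 171 to 182 CPM in control. Gsta4 rose by 0.26 ± 0.07 (adjusted p = 0.0214), Gstt1 by 0.31 ± 0.09 (adjusted p = 0.0339) and Gsta2 by 2.04 ± 0.59 (adjusted p = 0.0332). These last 3 calls are fragile. That of Gsta4 was lost without control 1 or 2 or HFpEF-FoxO1-sh 1 or 3 (edgeR adjusted p up to 0.0569). That of Gstt1 was lost without control 1, 2, 3 or 5 or HFpEF-FoxO1-sh 1, 2, 3 or 4 (up to 0.0792), and that of Gsta2 without control 1, 2, 3 or 5 (up to 0.082) and in limma voom (adjusted p = 0.0593). Gsta2 is near the limit of detection, at 0.65 ± 0.271 CPM in HFpEF-FoxO1-sh and 0.161 ± 0.098 CPM in control, and its reads may be split with the near-identical Gsta1.

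Of 6 enzymes that make NADPH, which feeds glutathione and thioredoxin reductases, 1 was called between hairpins, Idh1, where 3.58% of all genes were. The median hairpin difference of the list was 0.07. Idh1, the cytosolic isocitrate dehydrogenase, had 74.9, 76.7, 72.6, 77.6 and 77.5 CPM in HFpEF-FoxO1-sh 1 to 5. HFpEF-scr 1 to 4 had 61.2, 53.6, 58.3 and 55.3 CPM, and control 1 to 5 had 52.4, 60.6, 59.3, 65.6 and 62.1 CPM. HFpEF-FoxO1-sh lay wholly above both, as Osgin1 did. Idh1 rose by 0.41 ± 0.06 against HFpEF-scr (edgeR adjusted p = 0.002) and by 0.34 ± 0.05 against control (adjusted p = 0.000833), and gave -0.07 ± 0.06 in HFpEF-scr against control (adjusted p = 0.515).

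Me1, the cytosolic malic enzyme, was higher in both HFpEF groups. It had 236 to 253 CPM in HFpEF-FoxO1-sh, 191 to 249 in HFpEF-scr and 149 to 191 in control. Me1 rose by 0.53 ± 0.07 in HFpEF-FoxO1-sh against control (edgeR adjusted p = 0.000222) and by 0.43 ± 0.08 in HFpEF-scr over control (adjusted p = 0.00421), and the hairpins gave 0.10 ± 0.08 (adjusted p = 0.496). Of the 6 genes of this list, the other 4 (G6pdx, Pgd, Tkt and Taldo1, of the pentose phosphate pathway) were called in none of the comparisons.

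Among regulators, Nfe2l1, an NRF2 relative known for control of proteasome genes, had 1074 to 1138 CPM in HFpEF-FoxO1-sh, 876 to 1138 in HFpEF-scr and 785 to 904 in control. It rose by 0.41 ± 0.06 in HFpEF-FoxO1-sh against control (edgeR adjusted p = 0.000378) and by 0.35 ± 0.06 in HFpEF-scr over control (adjusted p = 0.00421), and gave 0.06 ± 0.06 between hairpins (adjusted p = 0.652). Dpp3, a peptidase that binds KEAP1, fell by 0.22 ± 0.06 in HFpEF-FoxO1-sh against control (edgeR adjusted p = 0.0205). Sqstm1, the p62 protein that draws KEAP1 into autophagy, rose by 0.19 ± 0.05 (adjusted p = 0.03), a call lost without control 1 or 2 or HFpEF-FoxO1-sh 1, 3 or 5 (adjusted p up to 0.0698). Of its exon bases 17.3% are shared with Mrnip on the opposite strand. Bach1, a repressor at antioxidant response elements, gave 0.21 ± 0.08 (adjusted p = 0.0844).

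Prdx1, a peroxiredoxin and substrate of sulfiredoxin, was the 1 gene of 6 called in the thioredoxin list. That call was in HFpEF-FoxO1-sh against control, where 13.0% of all genes were called. It had 173 to 187 CPM in HFpEF-FoxO1-sh, 159 to 168 in HFpEF-scr and 146 to 158 in control, so that the 3 groups stood in steps without overlap. It rose by 0.25 ± 0.04 in HFpEF-FoxO1-sh against control (edgeR adjusted p = 0.000238), while the steps of 0.13 ± 0.04 between hairpins and 0.12 ± 0.04 in HFpEF-scr against control did not pass (adjusted p = 0.0602 and 0.0579).

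Oxidoreductases and conjugating enzymes gave 3 rises of 12 tested in HFpEF-FoxO1-sh against control, where 6.68% of all genes rose. Aldh1a1, which oxidises retinal, had 24.6 to 35.3 CPM in HFpEF-FoxO1-sh, 18.4 to 26.3 in HFpEF-scr and 15.2 to 21.8 in control. It rose by 0.71 ± 0.12 against control (edgeR adjusted p = 0.000833) and by 0.57 ± 0.12 against HFpEF-scr (adjusted p = 0.0224), and the call against HFpEF-scr was lost without HFpEF-scr 1 or 3 or HFpEF-FoxO1-sh 1, 3 or 4 (adjusted p up to 0.0603). Aox1, an aldehyde oxidase, rose by 0.79 ± 0.12 (adjusted p = 0.000623) and Ephx1, an epoxide hydrolase, by 0.50 ± 0.08 (adjusted p = 0.000679) against control. Ugdh, which makes the sugar for glucuronidation, went the other way between hairpins, with 11.8 to 13.3 CPM in HFpEF-FoxO1-sh and 13.9 to 16.7 in HFpEF-scr. It fell by 0.30 ± 0.08 (adjusted p = 0.0446), and that call was lost without HFpEF-scr 1, 3 or 4 or HFpEF-FoxO1-sh 1, 2, 3 or 4 (adjusted p up to 0.128), and with no filter on low counts (adjusted p = 0.0571).

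In the haem and iron list Fth1, the heavy chain of ferritin, rose by 0.18 ± 0.05 in HFpEF-FoxO1-sh against control (edgeR adjusted p = 0.0231), a call lost without control 1 or 4 or HFpEF-FoxO1-sh 1 or 3 (adjusted p up to 0.0644). Gpx1, a glutathione peroxidase, fell, with 27.4 to 32.2 CPM in HFpEF-FoxO1-sh and 34.9 to 45.8 in control, by 0.45 ± 0.11 (adjusted p = 0.018). None of 5 export pumps tested was called in any comparison, where 3.58% to 13.0% of all genes were. The summed level of 9 red cell markers was 701 to 1643 CPM in HFpEF-FoxO1-sh, 523 to 5812 in HFpEF-scr and 994 to 1431 in control, with HFpEF-scr 1 highest and none of the 9 at 0. HFpEF-scr 1 also had the highest Gpx1, at 47.9 CPM, and the part of red cells in it was not tested. That library stood apart in other ways. It had the highest sum of 10 endothelial markers, at 2043 CPM, and the highest macrophage sum of its group, at 295 CPM. Within HFpEF-scr it had the lowest Nfe2l1 (876 CPM), Me1 (191 CPM) and Aox1 (43.6 CPM).

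**Figure D4:**
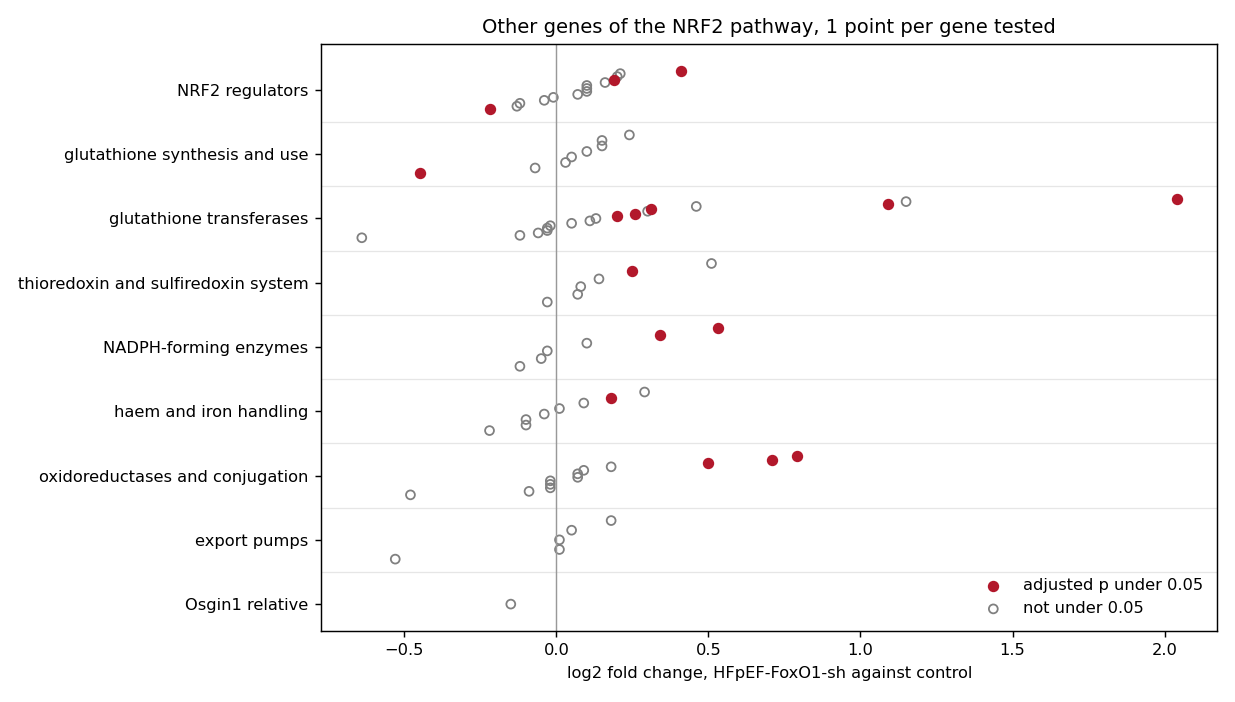
Log2 fold change in HFpEF-FoxO1-sh against control (horizontal axis) of the 77 tested genes of the wider NRF2 pathway, by list, with filled points for an edgeR adjusted p under 0.05. Filled points are mostly to the right of 0, 14 against 2, with Gsta2 farthest out at 2.04. Of all genes 6.68% rose and 6.28% fell.

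HFpEF-scr against control gave 10 calls in the wider pathway, 6 rises and 4 falls, where 3.66% of all genes rose and 3.70% fell. Besides Nfe2l1 and Me1, the rises were Aox1 (0.46 ± 0.13, edgeR adjusted p = 0.0445), Ugdh (0.28 ± 0.08, adjusted p = 0.0426), Gstm1 (0.14 ± 0.04, adjusted p = 0.047) and Gsta2 (2.14 ± 0.61, adjusted p = 0.045). The falls were Glrx, a glutaredoxin (-0.24 ± 0.06, adjusted p = 0.0222), Blvra, a biliverdin reductase (-0.30 ± 0.08, adjusted p = 0.0277), Dpp3 (-0.21 ± 0.06, adjusted p = 0.0454) and Gstm7 (-0.21 ± 0.06, adjusted p = 0.047). Nfe2l1 and Me1 were the 2 of these 10 calls that stood in every alternative. That of Glrx was lost without control 5 or HFpEF-scr 2 or 4, and each of the other 7 was lost without at least 5 of the 9 single libraries, always with HFpEF-scr 2 or 3 among them.

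Between hairpins, Gstt1 was the remaining call, with 13.3 to 14.8 CPM in HFpEF-FoxO1-sh and 8.87 to 12.1 in HFpEF-scr. It rose by 0.41 ± 0.10 (edgeR adjusted p = 0.0321), and the call was lost without HFpEF-scr 1 or 3 or HFpEF-FoxO1-sh 1, 2, 3 or 4 (adjusted p up to 0.0881). Idh1 was the 1 call of 4 that stood in every alternative. Immediate early genes, which respond within minutes to handling and stress, were uneven among these libraries. Their mean log2 CPM over 18 genes was 3.04 to 5.47 in HFpEF-FoxO1-sh, 4.38 to 6.72 in HFpEF-scr and 2.95 to 5.94 in control, highest in HFpEF-scr 1 and 2. With that score as a covariate the hairpin difference was 1.07 for Osgin1, and without HFpEF-scr 1 and 2 it was 0.93. The called pathway genes numbered 1 under either setting, Idh1, while the other 3 differences kept their sign. With the covariate they were 0.43 for Gstt1, -0.34 for Ugdh and 0.55 for Aldh1a1 (edgeR adjusted p = 0.0682, 0.0663 and 0.0639), and without HFpEF-scr 1 and 2 they were 0.39, -0.31 and 0.46 (adjusted p = 0.143, 0.173 and 0.2).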

How the data were processed

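Poly(A) RNA of left ventricles was sequenced in 14 libraries, 5 labelled HFpEF-FoxO1-sh, 4 HFpEF-scr and 5 control. The submitters' processing notes name Bowtie2 2.1.0, RSEM 1.2.15 and mm10, without the role of each. The authors deposited expected counts per gene, as RSEM estimates them, and between 15.1% and 16.4% of values per library were not whole. Its columns are headed by bare numbers, which were tied to samples through the description in the labels. The numbers leave out 7, and a library of that number was not analysed here. The table holds 24054 genes, 27 under names turned into dates. The annotation and strand used are not given in the sources used here.

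Expected counts were rounded and tested in edgeR 4.0.16 (R 4.3.3) with filterByExpr, TMM and a quasi-likelihood fit of all 14 libraries with 1 coefficient per group. p-values are two-sided and adjusted by Benjamini-Hochberg over 13588 genes, and a gene was called under 0.05. SE came from the fold change and F. Depth was 13.17 to 21.25, in units of 1000000 counts. The members and lists were chosen with earlier results of these data known, so hairpin differences of members and all differences of Osgin1 carry no p. Text names the members, every pathway gene called, and the 6 genes most like Osgin1 on each scale. Bach1, Osgin2, Gsta1 and genes at the filter were named after their values were seen.

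Relations within groups used 100000 draws. Alternatives were DESeq2 1.42.0, its size factors, limma 3.58.1 voom, other filters, fits of 2 groups, the replicate number as a block and single libraries left out. The immediate early covariate and leaving out HFpEF-scr 1 and 2 together were added after seeing the data. The fit was also run on simulated counts with planted changes larger than most differences given here, so that run does not bear on the smaller ones. Positions are of GENCODE vM21 on GRCm38, and promoters are RefSeq's, GRCm38.p6.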

Additional observations from a re-analysis of the deposited data

Results flagged for a closer look

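Among 87 groups of 4 or 5 libraries, 5 had a library far from the others, where chance flags about 1 group in 20, or 4.3 of these. Keap1 was 104 CPM in HFpEF-scr 4, with the other HFpEF-scr libraries at 97.9 to 98.8 CPM. Gsta3 was 9.78 CPM in HFpEF-scr 4, with the others at 4.42 to 4.85 CPM. Blvra was 9.64 CPM in HFpEF-scr 1, with the others at 8.36 to 8.58 CPM, and 11.9 CPM in control 2, with the other controls at 10.4 to 10.7 CPM. Ephx1 was 25.6 CPM in control 1, with the other controls at 33.7 to 35.6 CPM. The rise of Ephx1 in HFpEF-FoxO1-sh against control was 0.42 without control 1.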

How the results depend on the processing

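The difference that chose Osgin1, in HFpEF-FoxO1-sh against HFpEF-scr, was 0.83 to 1.00 without single libraries and 0.87 to 1.07 in the other settings, and supports nothing further. Where settings moved counts or signs the cause was not tested. For that comparison the genes called numbered 857 in DESeq2, 236 with the immediate early covariate, 54 without HFpEF-scr 1 and 2, and 162 to 668 without single libraries, beside 486, and the pathway genes called 8, 1, 1 and 1 to 6, beside 4. For HFpEF-scr against control the genes called were 504 in the fit of 2 groups, 400 with the covariate, 560 without HFpEF-scr 1 and 2, and 537 to 1106 without single libraries, beside 1001. Pathway genes called there were 6 without a filter, 4 in the fit of 2 groups, 2 with the covariate, 3 without HFpEF-scr 1 and 2, and 3 to 7 without single libraries, beside 10, and members called 1 without HFpEF-scr 1 and 2 (Nfe2l2, edgeR adjusted p = 0.00494) and 0 to 1 without single libraries. HFpEF-FoxO1-sh against control gave 1228 to 1683 genes, 11 to 17 pathway genes and 0 members without single libraries, and 1 member in the fit of 2 groups.

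Signs turned for values near 0. HFpEF-scr against control became 0.01 for Keap1 without control 4 or without HFpEF-scr 1 and 2 (-0.04 to 0.01 without single libraries), -0.02 for Nqo1 without HFpEF-scr 2 (-0.02 to 0.17) and -0.05 for Gclc without HFpEF-scr 1 and 2. Gclc in HFpEF-FoxO1-sh against control became 0.0047 in voom, 0.04 without control 2 and 0.02 without HFpEF-FoxO1-sh 2 or 5 (-0.03 to 0.04 without single libraries). The relation of Osgin1 with Hmox1 had a rho of -0.08 and, without 2 libraries, an r of -0.01, and that with Gclc -0.12 and -0.17.

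Of 30 calls of pathway genes 14 stood in every alternative. Same-numbered libraries did not clearly deviate together, with correlations from -0.194 to 0.111, so no pairing by number was seen. Libraries of different numbers were not compared, and a shared litter or day was not tested. With the replicate number as a block, 291 genes were called between hairpins and Osgin1 gave 0.87. Under that block the calls of Ugdh between hairpins (edgeR adjusted p = 0.0978) and of Fth1 in HFpEF-FoxO1-sh against control (0.0503) were lost. In HFpEF-scr against control those of Gsta2 (0.0747), Gstm1 (0.101), Blvra (0.0661), Aox1 (0.0614) and Ugdh (0.0823) were lost under it. Counts of 34 to 78 limit the precision of Osgin1.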
